A study of Mus musculus with 10 samples.

Results

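Levels of 8 genes of intracellular cholesterol handling were followed in bulk RNA-seq of mouse cortex: Npc2, Npc1, Lipa, Scarb2, Stard3, Osbp, Soat1 and Cyp46a1. They are 8 of the 53700 gene identifiers counted, were found by symbol in the GENCODE annotation of GRCm39, and all 8 passed the filter on low counts. Npc2 was selected on its measured difference in counts between the groups compared here, and the other 7 were added for their function with results of the same comparison known. Their differences between the groups are therefore given as a description, without p-values.

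The cortices came from 10 female mice aged 4 months, 5 per group. All 10 mice were 5XFAD, that is, they carried mutant human transgenes that cause amyloid plaques. In the 5 labelled 5XFAD;Neu cKO, Camk2a-cre served to delete floxed Idol (Mylip), which encodes a ubiquitin ligase. The 5 labelled 5XFAD are littermate controls that the labels call Camk2a-cre WT. Whether these controls carried floxed alleles is not given in the sources used here. Camk2a-cre acts mainly in excitatory neurons of the forebrain, while the libraries hold RNA from all cells of the cortex. Mice without the 5XFAD transgenes were not analysed here.

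Cholesterol that enters a cell in lipoproteins reaches the lysosome as cholesteryl ester. It is freed there, bound by NPC2, passed to NPC1 and moved out to other membranes, where it is used, esterified for storage or oxidised. Loss of NPC1 or NPC2 causes Niemann-Pick type C disease, in which cholesterol stays in lysosomes and neurons die. In the brain cholesterol is made locally, is handed between glia and neurons on APOE particles, and leaves largely after a hydroxylation in neurons.

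The libraries held from 4320504 to 7466192 reads on genes. They were made from the 3′ ends of transcripts, so that a count scaled to the size of its library (CPM, with TMM normalization) does not grow with transcript length and levels of different genes can be set side by side. Differences are given as log2FC, the log2 fold change of 5XFAD;Neu cKO against 5XFAD, with its standard error (SE). Mylip was at 11.2 ± 2.27 CPM in 5XFAD and 14.8 ± 4.90 CPM in 5XFAD;Neu cKO (SD, n = 5; log2FC 0.39, SE 0.25; Benjamini-Hochberg adjusted p = 0.777, quasi-likelihood test of edgeR). The estimate for the targeted gene was thus not lower where the labels say it was deleted. Counts summed per gene do not tell from which part of Mylip the reads came, and why its estimate was not lower was not tested. Group names below therefore mean the libraries so labelled. A pair of libraries stood apart from their groups in the reads on mt-Nd3 and Gm28438: mt-Nd3 took 88.1% of the reads on both in 5XFAD replicate 2 and 0.713% to 1.34% in the other 5XFAD libraries, against 2.39% in 5XFAD;Neu cKO replicate 2 and 97.7% to 99.5% in the other 5XFAD;Neu cKO libraries. Outside that pair the share separated the groups fully. Whatever goes with it thus cannot be told apart from the group in any difference below. Without that pair log2FC of Npc2, described below, was -0.63 (SE 0.13), and with the share as a covariate in all libraries it was -0.66 (SE 0.15). Neither value tells the share from the group. Without that pair the share goes fully with the group, and the covariate fit rests mainly on that pair. Markers of excitatory neurons of the cortex were present in every library, the 8 genes summing to between 2128 and 2618 CPM.

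Of the 8 genes, Npc2 was the one whose level separated the groups, and it was lower in 5XFAD;Neu cKO. NPC2 is the small soluble protein of the lysosome that carries freed cholesterol. Npc2 (ENSMUSG00000021242) lies on the minus strand of chromosome 12 of GRCm39, from 84801334 to 84820617. Its 5′ end lies inside Isca2 on the opposite strand, which had 1057 reads over all libraries and does not reach the 3′ end of Npc2. It was at 92.1, 96.0, 73.4, 85.4 and 87.3 CPM in 5XFAD replicates 1 to 5 and at 59.6, 59.0, 51.7, 61.6 and 46.4 CPM in 5XFAD;Neu cKO replicates 1 to 5. Every 5XFAD;Neu cKO library lay below every 5XFAD library, the nearest pair being 61.6 and 73.4 CPM. The group means were 86.8 ± 8.58 and 55.7 ± 6.40 CPM (SD, n = 5), so that 5XFAD;Neu cKO stood at 64.1% of the 5XFAD mean (log2FC -0.64, SE 0.12). In whole cortex, fewer cells of a type that expresses the gene and less of its RNA per cell cannot be told apart. The counts behind these values ran from 389 to 540 in 5XFAD and from 319 to 394 in 5XFAD;Neu cKO.

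In the fit over all 19268 genes tested, 1 of the 8 genes, Npc2, was past an adjusted p of 0.05, as a lower gene. Over all genes 0.161% were past it and lower, 0.0571% past it and higher, and 0.218% either, while in DESeq2 1.25% of the genes with an adjusted p were. Groups that did not overlap, with 5XFAD;Neu cKO lower, were found for 1 of the 8 genes and for 0.721% of all genes, or 1.3% in either direction. Because Npc2 was chosen for this difference, these counts support nothing about the list. Among the 31 genes that were past the threshold and lower, Npc2 had the 15th largest fall. Over the 19 alternatives tried its log2FC was lowest without 5XFAD replicate 3 (-0.70) and highest without 5XFAD;Neu cKO replicate 5 (-0.58).

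**Figure D1:**
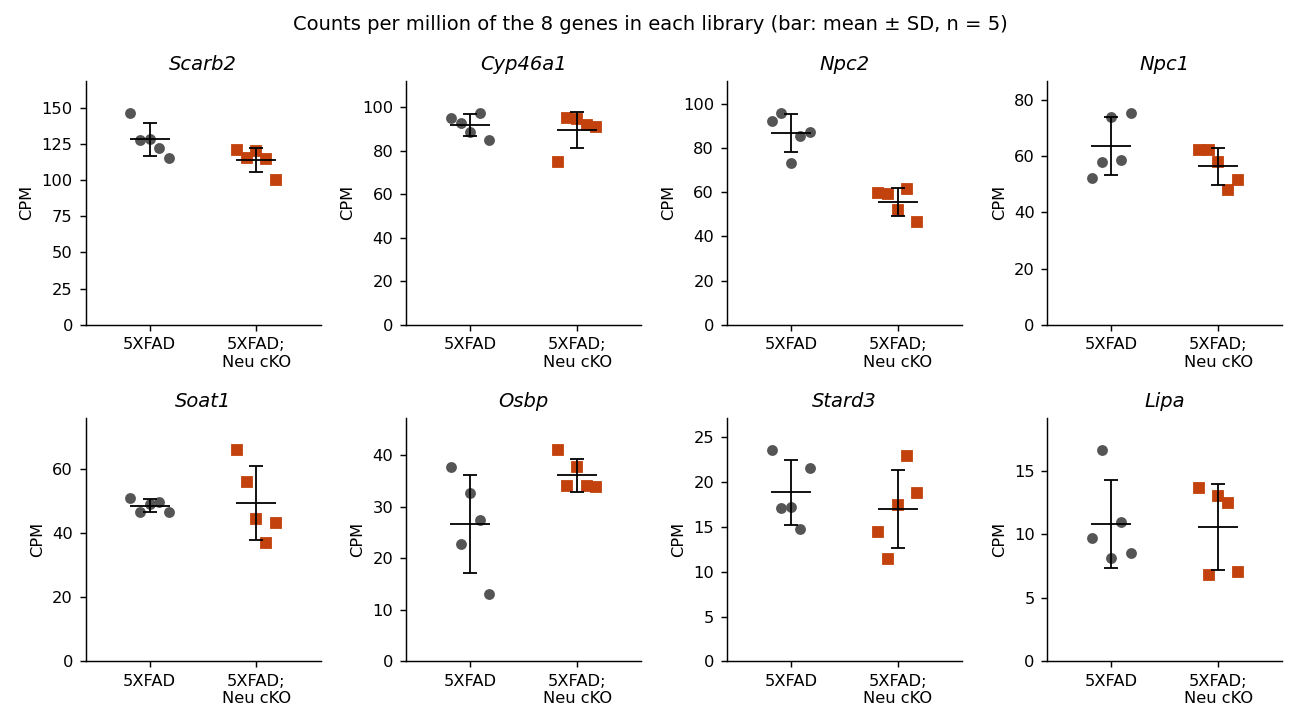
CPM of each of the 8 genes (vertical axis, starting at 0, a scale of its own in each panel) in the 5 libraries of 5XFAD (circles) and the 5 of 5XFAD;Neu cKO (squares), with the mean and SD of each group. Npc2 is the panel in which the groups do not overlap, with a lowest 5XFAD value of 73.4 CPM and a highest 5XFAD;Neu cKO value of 61.6 CPM.

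To show what lies in front of the gene whose level differed, the 250 bases before the RefSeq start of Npc2 (GRCm38.p6, chr12:84773113-84773362, minus strand) are printed 5′ to 3′, with the CAAT boxes, CCAAT or its reverse complement ATTGG, in capitals.
Npc2: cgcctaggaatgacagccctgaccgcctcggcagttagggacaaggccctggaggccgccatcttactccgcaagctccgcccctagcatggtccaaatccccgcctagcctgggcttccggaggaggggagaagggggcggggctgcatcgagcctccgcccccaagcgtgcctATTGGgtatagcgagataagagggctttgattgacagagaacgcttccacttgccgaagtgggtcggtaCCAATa
Besides these 2 CAAT boxes, this stretch holds 3 GC boxes (GGGCGG or its reverse complement) and is 62.0% G or C, against a median of 52.4% over all promoters of this length. The RefSeq table has promoters for 7 of the 8 genes, all but Npc1. A CAAT box was found on either strand in 6 of the 7 and in 33.8% of all 32851 promoters, and a GC box in 5 of the 7 and in 32.7%. The core of the lysosomal gene element, TCACGTGA, was found in 0 of the 7 and in 0.785% of all promoters. The shorter E-box CACGTG, which lies within it, was in 0 of the 7 and in 6.02%. No match says only that these letters are not in this window. As Isca2 runs the other way over the 5′ end of Npc2, boxes found there need not belong to Npc2 alone.

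Npc1, the membrane protein that takes cholesterol from NPC2, did not separate the groups. It was at 52.3, 58.0, 73.8, 58.7 and 75.4 CPM in 5XFAD and at 62.3, 62.4, 57.8, 48.0 and 51.4 CPM in 5XFAD;Neu cKO, replicates 1 to 5. The groups overlapped, 5XFAD replicates 3 and 5 being the highest, with means of 63.6 ± 10.3 and 56.4 ± 6.47 CPM (SD, n = 5; log2FC -0.18, SE 0.12, and -0.11 without 5XFAD replicate 5). Npc1 (ENSMUSG00000024413, chromosome 18, 12322749 to 12369550) ends inside Rmc1 on the opposite strand, which had 462 reads over all libraries. The strand setting of the counting is not given in the sources used here, so reads of these 2 genes could have been mixed or left out as ambiguous. The level of Npc1, and its place in the order of levels below, could be affected.

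Lipa, which encodes the acid lipase that frees cholesterol from its esters in the lysosome, was the lowest of the 8 genes. It was at 9.69, 16.7, 8.15, 11.0 and 8.53 CPM in 5XFAD and at 13.6, 6.81, 13.0, 12.5 and 7.04 CPM in 5XFAD;Neu cKO, from 37 to 99 reads per library. Both the highest and the lowest of the 10 values were in replicate 2, of 5XFAD and of 5XFAD;Neu cKO, the pair that stood apart in mt-Nd3. With all libraries log2FC was -0.02 (SE 0.27), and without that pair it was 0.30 (SE 0.29). With the mt-Nd3 share as a covariate it was -0.55 (SE 0.34). Scarb2 encodes LIMP-2, a lysosomal membrane protein that delivers glucocerebrosidase and can itself carry cholesterol. It was at 147, 128, 129, 122 and 116 CPM in 5XFAD and at 121, 115, 120.3, 115 and 100.1 CPM in 5XFAD;Neu cKO. The 5XFAD;Neu cKO values were on the low side of the 5XFAD values but overlapped them (log2FC -0.17, SE 0.10).

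Stard3 and Osbp encode proteins that move sterol between membranes, the first between the endoplasmic reticulum and late endosomes and the second between the endoplasmic reticulum and the Golgi. Stard3 was at 23.6, 17.1, 17.3, 14.7 and 21.5 CPM in 5XFAD and at 14.4, 11.4, 17.5, 22.9 and 18.8 CPM in 5XFAD;Neu cKO. The groups overlapped over most of their range (log2FC -0.14, SE 0.21), and log2FC was -0.03 without 5XFAD;Neu cKO replicate 2 and -0.27 without replicate 4 of that group. Osbp was at 37.8, 22.8, 32.7, 27.4 and 13.0 CPM in 5XFAD and at 41.1, 34.0, 37.7, 34.0 and 33.8 CPM in 5XFAD;Neu cKO. Its 5XFAD values were spread widely, 5XFAD replicate 1 lying among the 5XFAD;Neu cKO values and replicate 5 far under them. The means were 26.7 ± 9.52 and 36.1 ± 3.24 CPM (SD, n = 5; log2FC 0.42, SE 0.18), the highest estimate of the 8, which was not past the threshold in the fit over all genes. Without 5XFAD replicate 5 it was 0.25, a value more than 1.5 times smaller.

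Soat1 and Cyp46a1 stand for the fates of cholesterol after it leaves the lysosome, the first esterifying it for storage and the second, an enzyme of neurons, hydroxylating it so that it can leave the brain. Soat1 was at 51.0, 46.5, 49.0, 49.8 and 46.5 CPM in 5XFAD and at 66.0, 55.9, 44.4, 37.0 and 43.2 CPM in 5XFAD;Neu cKO. The means were close, at 48.5 ± 2.02 and 49.3 ± 11.6 CPM (SD, n = 5), while the 5XFAD;Neu cKO values lay both above and below all 5XFAD values. The difference was small beside its error (log2FC 0.02, SE 0.14). Cyp46a1 was at 94.8, 92.7, 88.6, 97.3 and 84.6 CPM in 5XFAD and at 74.8, 94.9, 94.7, 91.7 and 90.6 CPM in 5XFAD;Neu cKO. The groups overlapped (log2FC -0.04, SE 0.10), and 5XFAD;Neu cKO replicate 1 was the lowest library.

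Over the 7 genes other than Npc2, 5 had a lower and 2 a higher estimate in 5XFAD;Neu cKO, the median log2FC being -0.035, while over all genes tested the median was -0.00056 and 50.1% were lower. Of the 7, 0 were past the threshold in edgeR or in any of the 19 alternatives, DESeq2 among them (which gave Lipa and Stard3 no adjusted p), and 1 of them, Osbp, had an unadjusted p under 0.05, as did 7.95% of all genes.

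**Figure D2:**
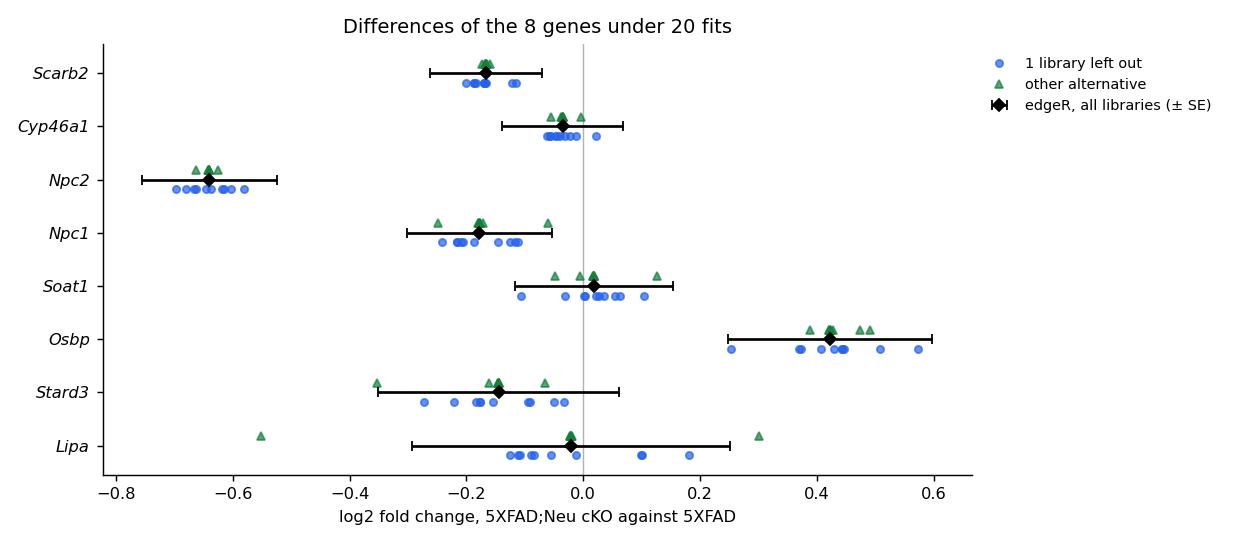
Log2 fold change of 5XFAD;Neu cKO against 5XFAD (horizontal axis) for the 8 genes, with the value from all 10 libraries in edgeR and its standard error (diamonds), the values with 1 library left out (circles) and those of the other alternatives (triangles). Npc2 stays between -0.70 and -0.58, and Cyp46a1, Soat1 and Lipa have values on both sides of 0.

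The levels differed widely between the genes. Averaged over the 10 libraries, Scarb2 was at 121 ± 12 CPM (SD), Cyp46a1 at 90.5 ± 6.61, Npc2 at 71.2 ± 17.9, Npc1 at 60.0 ± 8.98, Soat1 at 48.9 ± 7.83, Osbp at 31.4 ± 8.33, Stard3 at 17.9 ± 3.91 and Lipa at 10.7 ± 3.22. Scarb2 was thus above 94.2% of the genes tested and Lipa above 55.4%. Neighbours in this order were compared within each library on the log2 CPM scale by exact sign-flip permutation tests (two-sided, 10 libraries, Benjamini-Hochberg adjustment over all 7 pairs). The order was taken from these same libraries, so a test says only whether the counts of a pair differ. No test is given for the 2 pairs that hold Npc2, since its level over all libraries carries the group difference by which it was chosen. Scarb2 exceeded Cyp46a1 in 10 of 10 libraries by a mean difference of 0.42 (SD 0.17, exact adjusted p = 0.00456). Its unadjusted p of 0.00195 is the smallest that an exact test over all sign changes allows. Soat1 over Osbp, with a difference of 0.68, and Stard3 over Lipa, with 0.75, also held in 10 of 10 libraries (exact adjusted p = 0.00456). Npc1 was above Soat1 in 9 of 10 (0.29, exact adjusted p = 0.0103) and Osbp above Stard3 in 9 of 10 (0.77, exact adjusted p = 0.0137). The place of Npc2 in the order went with the group. Npc2 was above Npc1 in 4 of 5 libraries of 5XFAD and in 1 of 5 of 5XFAD;Neu cKO, and Cyp46a1 was above Npc2 in 3 of 5 and in 5 of 5.

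The rest of the pathway was taken from a list of 55 genes in 6 roles, of which 52 were tested, and Npc1l1, Soat2 and Hsd3b7 had too few reads. Of the 52, 29 had a lower and 23 a higher estimate in 5XFAD;Neu cKO, the median log2FC being -0.049. In edgeR 0 of the 52 were past the adjusted threshold, against 0.218% of all genes. At an unadjusted p under 0.05 there were 4, all lower, or 7.69% against 7.95% of all genes, of which 773 of 1532 were lower. The alternatives called 0 as well, DESeq2 among those genes to which it gave an adjusted p. The smallest adjusted p was 0.342, that of Lamp2.

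Of 7 genes of the lysosomal membrane and of sterol sensing there, 4 were lower by their estimates and 3 higher. Lamp2, a main glycoprotein of that membrane, was at 68.5 ± 1.69 CPM in 5XFAD and 53.8 ± 6.68 CPM in 5XFAD;Neu cKO (SD, n = 5; log2FC -0.35, SE 0.12), and was the one pathway gene of the 52 whose groups did not overlap, or 1.92% against 1.3% of all genes. Its sister Lamp1 was at 255 ± 10.6 and 222 ± 22.1 CPM (log2FC -0.20, SE 0.08; adjusted p = 0.500, edgeR). Of 6 genes of lysosomal lipid hydrolysis, 4 were lower and 2 higher by their estimates. Pla2g15, a lysosomal phospholipase, was at 19.3 ± 2.29 and 14.2 ± 2.22 CPM (log2FC -0.44, SE 0.20; adjusted p = 0.560, edgeR), and Psap, the precursor of the saposins, was at 663 ± 22.3 and 603 ± 48.5 CPM (-0.14, SE 0.07; adjusted p = 0.667).

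Sterol transfer proteins of membrane contacts, the largest role with 21 genes, had 10 lower and 11 higher estimates and a median log2FC of 0.043. Osbpl5 was at 13.2 ± 2.49 and 9.60 ± 2.36 CPM (log2FC -0.46, SE 0.25; adjusted p = 0.695, edgeR) and Osbpl8 at 80.2 ± 11.5 and 91.9 ± 9.11 CPM (0.20, SE 0.11; adjusted p = 0.703), with 0.12 without 5XFAD replicate 3. Among 4 genes of ester storage, Nceh1, a hydrolase of cholesteryl ester outside the lysosome, was at 219 ± 14.9 and 187 ± 21.6 CPM (log2FC -0.23, SE 0.09; adjusted p = 0.445, edgeR). Plin2, a coat protein of lipid droplets, was at 4.11 ± 2.98 and 1.97 ± 1.05 CPM (-1.05, SE 0.54; adjusted p = 0.656), and without 5XFAD replicate 2 its log2FC was -0.66.

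Regulators and other hydroxylases gave little. Of 9 regulators of sterol and lysosomal genes 5 were lower and 4 higher by their estimates. Srebf2, which drives sterol synthesis genes, was at 75.1 ± 4.31 and 67.1 ± 2.19 CPM (log2FC -0.16, SE 0.11; adjusted p = 0.812, edgeR), and Nr1h3, a liver X receptor, was at 1.80 ± 1.13 and 0.866 ± 0.599 CPM (-1.05, SE 0.81; adjusted p = 0.856). Of the 5 other hydroxylase genes tested 4 were lower by their estimates, but Ch25h had at most 3 reads and Cyp39a1 at most 2 in any 5XFAD;Neu cKO library, too few for a fold change.

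**Figure D3:**
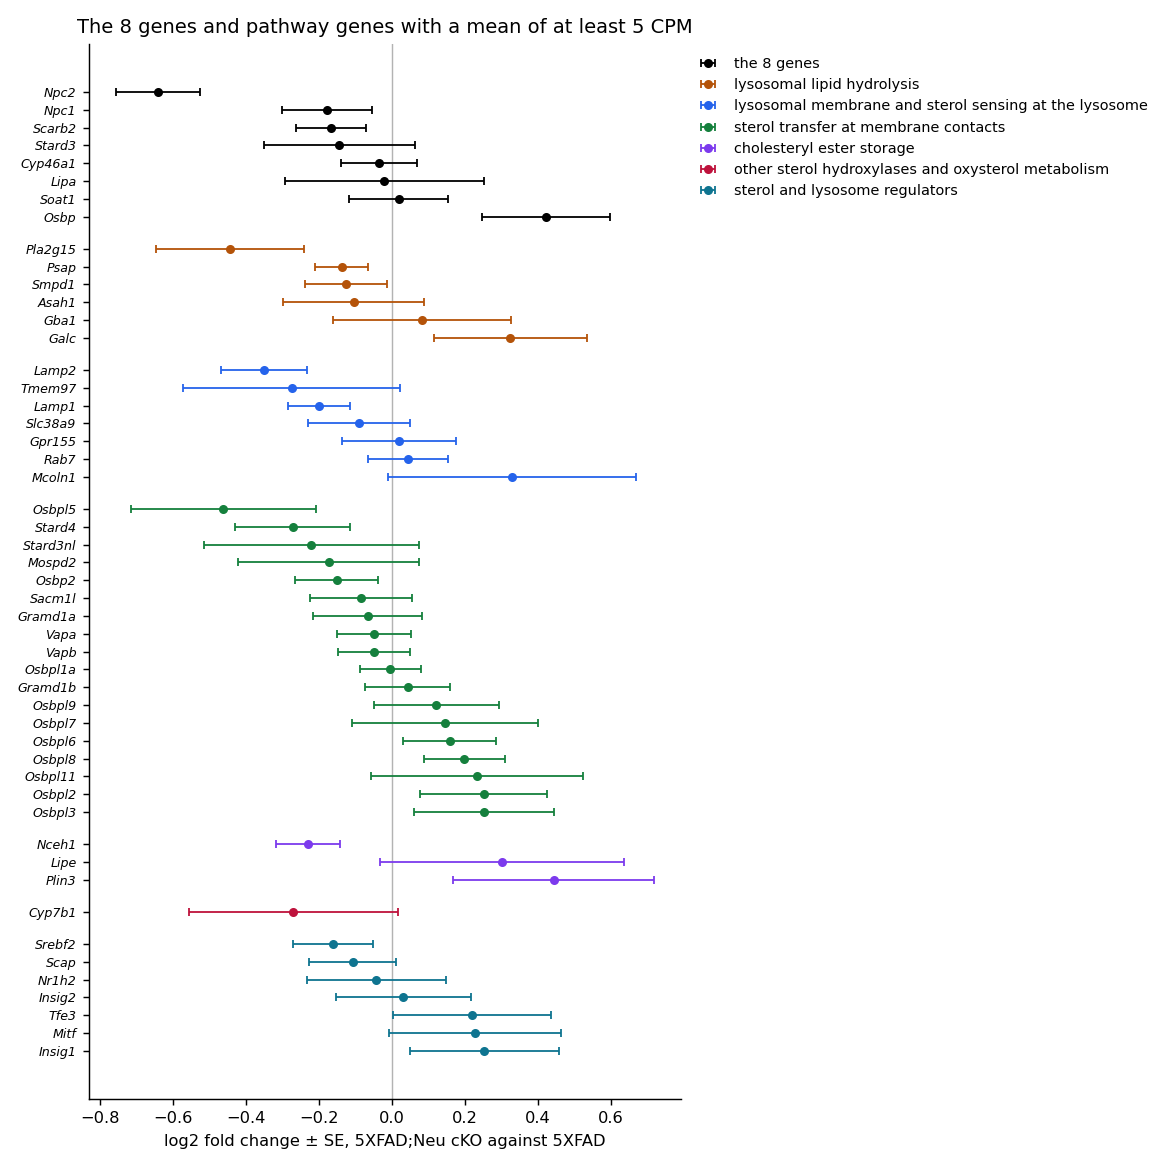
Log2 fold change with its standard error (horizontal axis, 5XFAD;Neu cKO against 5XFAD) for the 8 genes and the pathway genes with a mean of at least 5 CPM, coloured by role. Npc2 lies farthest to the left, at -0.64, and Osbp, at 0.42, far to the right with an SE of 0.18.

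Markers of the cell types of the cortex were set beside these values. All 11 microglial markers were lower in 5XFAD;Neu cKO by their estimates, from -0.26 for Aif1 to -1.21 for C1qb, and 6 of the 11 were past the threshold in edgeR over all genes: Cx3cr1, Csf1r, C1qb, C1qc, Tyrobp and Ctss. Of these, Cx3cr1 lost the call without 5XFAD replicate 2 (adjusted p = 0.231, edgeR) or 5XFAD;Neu cKO replicate 3, 4 or 5 (0.0694 to 0.0846), Csf1r without 5XFAD replicate 2 (0.0808), and C1qc without 5XFAD replicate 4 (0.0636) or 5XFAD;Neu cKO replicate 5 (0.0984). All 3 also lost it without replicate 2 of either group, the pair that stood apart in mt-Nd3 (adjusted p of 0.262 for Cx3cr1, 0.123 for Csf1r and 0.0509 for C1qc, edgeR). Their summed level was 409 to 620 CPM in 5XFAD and 264 to 339 CPM in 5XFAD;Neu cKO, without overlap, and the mean of the latter was 60.3% of the former. None of the 11 was at 0 in any library. For Npc2 the like share was 64.1%. Per 100 CPM of these markers Npc2 was at 16.4, 15.5, 17.9, 16.6 and 18.6 CPM in 5XFAD and at 17.8, 17.4, 16.6, 20.2 and 17.6 CPM in 5XFAD;Neu cKO, so that the groups overlapped, with means of 17.0 ± 1.26 and 17.9 ± 1.34 (SD, n = 5). This ratio was chosen after the values were seen. With Ctss, the most abundant of the markers, left out of the sum it was 24.3 ± 2.20 and 24.3 ± 2.38. Of the other 7 genes, Npc1, Lipa and Stard3 also overlapped between the groups per 100 CPM of microglial markers, and Scarb2, Soat1, Cyp46a1 and Osbp did not. Because the marker sum itself separated the groups, this ratio pushes genes of steady level apart. Cyp46a1 and Soat1 had a log2FC of -0.04 and 0.02 before division by the markers. The same was not counted over all genes, so overlap or its lack was not a test of any link to microglia. Per 100 CPM of oligodendrocyte markers Npc2 was at 3.48 ± 0.60 and 2.66 ± 0.52 CPM, with overlap, and per 100 CPM of 8 astrocyte markers at 1.94 ± 0.10 and 1.29 ± 0.11 CPM, without. Most of the astrocyte sum came from Slc1a2, with means of 3007 CPM in 5XFAD and 2916 CPM in 5XFAD;Neu cKO, and the ratio was not repeated without it. The part of microglia in the level of Npc2 was not tested.

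**Figure D4:**
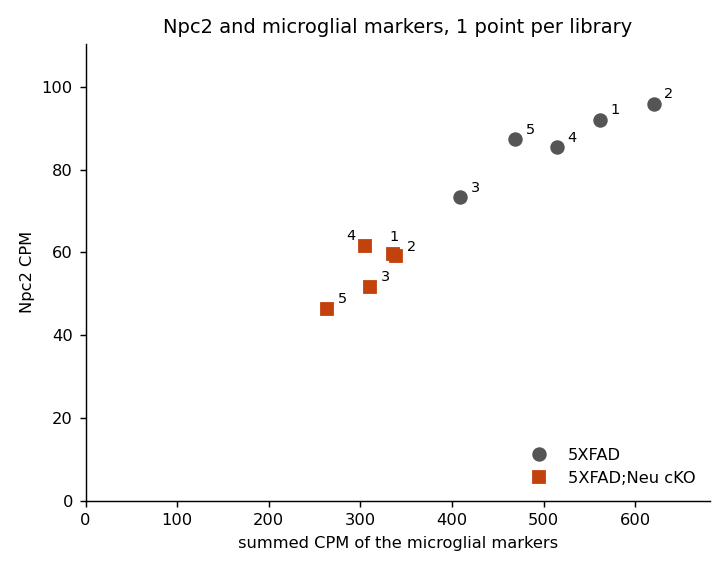
Npc2 CPM (vertical axis) against the summed CPM of 11 microglial markers (horizontal axis) in each library of 5XFAD (circles) and 5XFAD;Neu cKO (squares), numbered by replicate, with both axes from 0. The 5XFAD;Neu cKO libraries lie at the lower left, at 264 to 339 summed CPM, and both quantities are highest in 5XFAD replicate 2.

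Other marker lists moved less. Of 8 astrocyte markers 7 had lower estimates, from -0.88 for Gfap, the one past the threshold, to 0.05 for Slc1a3, with sums of 4135 to 4818 CPM in 5XFAD and 4038 to 4605 CPM in 5XFAD;Neu cKO. All 7 oligodendrocyte markers had lower estimates, from -0.46 for Mog to -0.08 for Cldn11, and 0 passed, with sums of 1949 to 2865 and 1756 to 2777 CPM. The 4 markers of oligodendrocyte precursors ran from -0.14 (Gpr17) to 0.25 (Cspg4), the 7 of inhibitory neurons from -0.42 (Vip) to 0.22 (Gad1) and the 5 of endothelial cells from -0.04 (Ly6c1) to 0.08 (Pecam1), and 0 of these passed. Of the 8 markers of excitatory neurons, of which 0 passed as well, Fezf2 had the lowest estimate (-0.21). The sums were 54.4 to 74.6 and 52.3 to 70.1 CPM for precursors, 2146 to 2618 and 2128 to 2443 for excitatory neurons, 580.0 to 700.0 and 567 to 706 for inhibitory neurons, and 194 to 250 and 206 to 245 for endothelial cells, in 5XFAD and 5XFAD;Neu cKO in turn. Of 7 markers of choroid plexus and other brain regions, whose sums were 183 to 263 and 135 to 273 CPM, Kl had the highest estimate (0.25). The lowest was that of Oxt, a peptide of the hypothalamus, which had 16 to 195 reads in 5XFAD and 0 to 66 in 5XFAD;Neu cKO (log2FC -2.40, edgeR, adjusted p = 0.000932), and whose adjusted p was 0.521 in edgeR's robust fit.

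The genes whose levels followed Npc2 most closely were ranked by Pearson's r of log2 CPM over the 10 libraries, among 9355 other genes with a mean of at least 50 reads. This r carries the group difference by which Npc2 was chosen and the depth that the libraries share, and is given without a p. The highest were Ctss (r = 0.978) and Ctsd (0.971), proteases of the lysosome, Ktn1 (0.972), which encodes kinectin, Laptm5 (0.954), a lysosomal membrane protein of immune cells, and mt-Tl1 (0.952), a mitochondrial transfer RNA, where the median gene had -0.0088. Of the other 7 genes of cholesterol handling Scarb2 was highest at 0.702 and Osbp lowest at -0.544. When each group's mean was subtracted, so that r described only how libraries of one group varied together, the highest were Tpra1 (0.927), Tlr3 (0.924), Trib2 (0.910), Zfyve27 (0.909) and Mboat7 (0.905). These are extremes of 9355 genes over 10 libraries, also given without a p, and how high unrelated genes would reach was not tested. By the first r they had -0.18, 0.50, 0.82, 0.20 and 0.84 in turn. Ctss still had 0.890 and Ktn1 0.894 on that measure, and Lipa, at 0.523, was the highest of the 7, with Npc1 at -0.26.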

How the data were processed

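Per the labels and the study's methods, the authors made QuantSeq 3′ libraries, trimmed adapters and poly(A) tails, aligned single reads to GRCm39 with STAR 2.7.3a and used htseq-count for the reads of each Ensembl gene. The deposited values are raw counts, 1 file per library. Summary rows (no feature, 31.3% to 39.9% of reads kept; ambiguous, 0.428% to 0.467%) were left out. In R 4.3.3, genes with a total count of 10 or less were removed, leaving 19268, and edgeR 4.0.16 was fitted (TMM, quasi-likelihood test, group as the only term, Benjamini-Hochberg over all genes, threshold 0.05). Standard errors were taken from the fold change and F. Log2 CPM used a prior count of 2. The edgeR steps were tested on simulated counts. All 20 within-group pairs of libraries differed beyond sampling noise (chi-square over its degrees of freedom at least 5.70).

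The 8 genes, the lists and the alternatives were chosen with earlier results of these data known. Named from the lists were genes past the threshold, otherwise per role the 2 smallest p-values and per marker list the extremes (1 of which is not reported here), and the 5 genes most like Npc2 by each measure. Alternatives were DESeq2 1.42.0, its size factors, filterByExpr, no filter, a robust fit, no mitochondrial genes, a replicate block, the mt-Nd3 share as a covariate, and libraries left out. Replicates are separate mice by the study's sample sizes. Counting error alone limits genes with few reads.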

Additional observations from a re-analysis of the deposited data

Results flagged for a closer look

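Cyp46a1 in 5XFAD;Neu cKO replicate 1, at 74.8 CPM, lay far under the other 4 libraries of its group, the nearest being at 90.6 CPM. Its gap to that library was 0.788 of the range of the group, above the critical value of Dixon's test at 95% for 5 samples. This was 1 of 34 groups of values tested, and chance flags about 1 in 20. Without that library the log2 fold change of Cyp46a1 was 0.02 instead of -0.04.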

How the results depend on the processing

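Npc2 was lower and past the threshold in all 19 alternatives, which is no independent support, since it was chosen on these counts. The other 7 genes stayed short of it in all, and Npc1, Scarb2, Stard3 and Osbp kept their direction. Cyp46a1 (-0.062 to 0.022 with each library left out) and Soat1 (-0.11 to 0.10, -0.048 without replicate 2 of either group and -0.00602 with the replicate block) changed sign around 0. Lipa changed sign over a wider range, with -0.12 to 0.18 with each library left out. It was at 0.30 without replicate 2 of either group and at -0.55 (SE 0.34) with the mt-Nd3 share as a covariate. The number of genes past the threshold was 42, and was 73 with DESeq2 (among the 5820 genes it gave an adjusted p), 103 with no filter on low counts, 80 with the mt-Nd3 share as a covariate, and 26 to 72 with each library left out. The cause was not tested. With the replicate number as a block it was 112, of 47 higher and 65 lower, against 11 and 31 in the fit without it. Same-numbered libraries did not deviate together (r from -0.084 to 0.052, and 0 of 5 correlated best with their own number). With so few libraries this cannot exclude that the numbers mark a pairing, which the labels do not state. Of the other named genes, 11 values changed sign: Cldn11 (-0.22 to 0.015 with each library left out, 0.014 without replicate 2 of either group), Kl (-0.028 to 0.67), Ly6c1 (-0.13 to 0.044, and 0.093 with the covariate), Tlr3 (-0.31 to 0.037), Pecam1 (-0.31 with the covariate) and Slc1a3 (-0.0046 without replicate 2 of either group). Together with the ratio of Npc2 to microglial markers without Ctss, the named genes outside the 8 had 794 values. Calls of these genes were lost in 20 of them (C1qb and Oxt, with no adjusted p in DESeq2, not counted) and gained in 1, Ktn1 with DESeq2. Most of these genes were not past the threshold at first, so most of the 794 values had no call to lose. Laptm5 kept its call in 10 of 19 alternatives, and in 3 of 10 with each library left out. Cx3cr1 kept it in 14 of 19, C1qc in 16 and Csf1r in 17. Lipa and Stard3, with 37 to 136 reads per library, are limited most by depth among the 8 genes.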
